A study of Mus musculus with 18 samples.

Results

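RNase resistance in Mavs-/- mouse liver was read from the 3 RNase-only and the 3 input peak lists of this genotype, 6 of the 18 libraries of the series. The RNase-only lists held 12548 peaks in all and the input lists 16000. The members were chosen by their labels alone, with no measured value. In the study, total liver RNA of pups 8 to 9 days old was refolded after heating and digested with a mixture of RNase A and RNase T1 without MDA5 (RNase-only), or was sequenced undigested (input). Both fractions came from Mavs-/- animals, whose sample titles read wild-type although the genotype field reads Mavs-/-. All mice therefore lacked MAVS, and the second genotype, Adar-/-; Mavs-/-, lacked MAVS and the RNA editing enzyme ADAR1. Each fraction was described as biological triplicates, and no label tied an RNase-only library to the animal of an input library. Neither Mavs nor Adar had an exonic peak in any of the 6 libraries, so the peak lists carried no check of either deletion.

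RNase A cuts single-stranded RNA after pyrimidines and RNase T1 cuts it after guanosines, whereas base-paired RNA is largely spared by both. Double-stranded stretches in cells come from inverted repeats within a transcript, mostly in introns and 3′ UTRs, from transcripts of opposite strands, and from the mitochondrial genome, which is transcribed in full on both strands. MDA5 is a cytosolic sensor that assembles on long double-stranded RNA and signals through MAVS, and inosines placed by ADAR1 weaken the pairing of such RNA. RNA that survives nucleases without MDA5 is thus the background against which MDA5-protected RNA is read.

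A peak was a stretch of a strand where reads passed the caller's area and significance limits. RNase-only peaks were called by the authors with input of the same genotype as the control, and input peaks without one. A transcript with an input peak and no RNase-only peak was therefore one for which no excess over input was called, which is not the same as the absence of resistant RNA, because the input signal of a transcript entered the call. The lists held no read counts, and the study describes the RNase-treated libraries as sequenced less deeply than input, so depth differed between the fractions compared and cannot be told apart from digestion in numbers of peaks. Peaks were assigned to genes by overlap with exons of the same strand in GENCODE M21 (GRCm38), a gene counted as covered by a fraction with an exonic peak in at least 2 of its 3 libraries, and an input-covered gene was called kept if it was also covered by RNase-only peaks. The p-values below measure the spread between these libraries. In such bulk samples, fewer cells of a type and less RNA per cell cannot be told apart.

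4 stretches are shown as examples of what the RNase-only peaks held, read 5′ to 3′ on the plus strand from the GENCODE M21 transcripts of GRCm38. The first, MT:13466-13591, is where the convergent genes mt-Nd5 and mt-Nd6 overlap, in a stretch that RNase-only peaks covered on both strands in all 3 libraries, and capitals mark the 14 bases that belong to both genes. The second, MT:7887-8123, was likewise covered on both strands in all 3 libraries, and capitals mark the 43 bases shared by mt-Atp8 and mt-Atp6. The third, chr14:50062236-50062374, lies in Gm37194, a locus of unconfirmed biotype, and capitals mark a peak of 19 bp found at the same position in every RNase-only library and in no input library. The last is exon 3 of Lypd8 (chr11:58382752-58382865, in capitals) between the neighbouring 20 bases of the spliced transcript, as an example of a peak with the shape of a coding exon.
mt-Nd5/mt-Nd6: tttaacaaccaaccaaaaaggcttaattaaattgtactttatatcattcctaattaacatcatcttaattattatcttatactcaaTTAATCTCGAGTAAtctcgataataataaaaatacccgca
mt-Atp8/mt-Atp6: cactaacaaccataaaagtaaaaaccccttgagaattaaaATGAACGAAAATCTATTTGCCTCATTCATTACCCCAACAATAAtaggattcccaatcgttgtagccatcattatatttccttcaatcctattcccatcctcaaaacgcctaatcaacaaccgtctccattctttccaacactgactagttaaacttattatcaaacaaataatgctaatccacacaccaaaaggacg
Gm37194: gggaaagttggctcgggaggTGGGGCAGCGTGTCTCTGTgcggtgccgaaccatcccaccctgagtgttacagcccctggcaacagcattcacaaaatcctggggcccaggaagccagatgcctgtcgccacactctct
Lypd8 exon 3: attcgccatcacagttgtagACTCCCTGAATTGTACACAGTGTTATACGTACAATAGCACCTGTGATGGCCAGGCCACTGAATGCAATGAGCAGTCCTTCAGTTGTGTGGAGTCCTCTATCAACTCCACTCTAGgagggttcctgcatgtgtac

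The mitochondrial stretches were poor in G and C (24.6% and 35.4%), the Gm37194 stretch was rich in them (61.2%), and the Lypd8 stretch lay between (48.1%). The mitochondrial stretches also had input peaks on both strands. Lypd8, which encodes a secreted protein of the colon epithelium, had an input peak in replicates 1 and 3, at its 3′ UTR (chr11:58390165-58390538 and chr11:58390141-58390534), and none in replicate 2. Its RNase-only peaks covered 975, 1083 and 920 of 1284 exonic bases, and exon 3 was among them in each library.

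Before any comparison, the labelled tissue was checked against marker genes. All 10 hepatocyte markers had an exonic peak in each input library and none had one in any RNase-only library. Over all 55536 annotated genes, 4.03% were input-covered and 1.77% were covered by RNase-only peaks. A list of 35 genes of the colon and rectum epithelium showed the reverse: 2, 1 and 2 of them had an exonic peak in the input libraries of replicates 1, 2 and 3, and 31, 30 and 29 in the RNase-only libraries. Peaks covered 32351, 31143 and 19068 exonic bases of this list in the RNase-only libraries and 248 to 1184 in the input libraries. Of 10 smooth muscle genes, 8, 10 and 6 had an RNase-only peak and 2, 1 and 2 an input peak. Lists for stomach, pancreas, kidney, epidermis, brain and skeletal or heart muscle had no gene with a peak in any of the 6 libraries, and lists for small intestine, lung and lymphocytes had at most 2 genes in a library. These organ lists were written after the peaks had been seen, and the counts are given without a test.

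**Figure D1:**
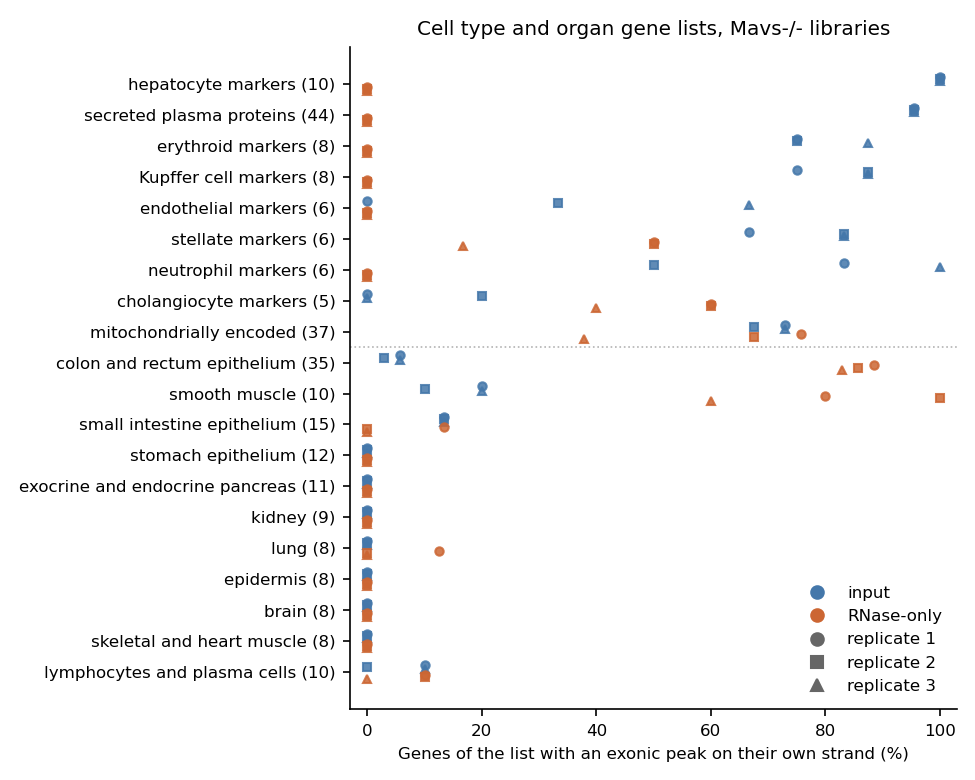
Share of the genes of each list (rows, number of genes in brackets) with an exonic peak on their own strand, in percent, in each Mavs-/- library. The 10 hepatocyte markers were at 100% in input and at 0% in RNase-only libraries, whereas the colon and rectum list had 31, 30 and 29 of 35 genes in the RNase-only libraries; the lists under the dotted line were written after the data were seen.

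The genes behind these counts were well covered. Car1, a carbonic anhydrase of colonocytes, had 894, 854 and 731 of its 1248 exonic bases under RNase-only peaks and none under input peaks. Krt20, a keratin of differentiated intestinal epithelium, had 697, 1208 and 845 bases covered in the RNase-only libraries, and the homeobox gene Hoxb13, which is active in the hindgut, had 1274, 1057 and 1277. The smooth muscle genes Des and Tagln had 1099, 1412 and 604 bases and 809, 789 and 426 bases covered in the RNase-only libraries. None of these 5 genes had an input peak in any Mavs-/- library. Muc2, the secreted mucin of goblet cells, had 225, 460 and 286 RNase-only bases, and Retnlb, Cdx2 and Ms4a12 had none. The RNase-only libraries of Adar-/-; Mavs-/- liver held 33, 29 and 28 of the 35 genes. RNase-only libraries of both genotypes thus went against the labelled tissue in these lists, and the part that such transcripts have in the results below was not tested; results are given separately for genes with and without input peaks.

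Replicate 3 of the RNase-only fraction also stood apart from replicates 1 and 2. Nuclear peaks within 200 bp of an annotated transcript start on either strand made up 6.65% and 9.99% of replicates 1 and 2 and 25.5% of replicate 3, where the input libraries had 26.03%, 27.97% and 25.03%. Nuclear RNase-only peaks with a peak on the opposite strand made up 9.34%, 4.61% and 18.9% of replicates 1, 2 and 3.

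The first question was how much of the liver transcriptome, as covered by input, still gave peaks after digestion. Input peaks had median lengths of 299, 276 and 290 bp, and RNase-only peaks were shorter at 176, 208.5 and 168 bp (184 ± 21.4 against 288 ± 11.6, mean ± SD, n = 3; exact permutation p = 0.1, adjusted p = 0.15). RNase-only peaks covered 1163314, 957512 and 587840 bases and input peaks 2058208, 1746321 and 2470120 (exact permutation p = 0.1, adjusted p = 0.15). The 2 fractions did not overlap in either measure, and 0.1 is the smallest two-sided p that 3 libraries against 3 can give. The numbers of peaks, 5572, 3826 and 3150 against 5049, 4326 and 6625, overlapped between the fractions (exact permutation p = 0.4).

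Of 2240 input-covered genes, 188 kept an RNase-resistant exonic peak, or 8.39% (95% Clopper-Pearson interval 7.28% to 9.62%, counting error over genes only). No peak in any RNase-only library was found for 1763 of them, 289 had one in 1 library, 126 in 2 and 62 in all 3. Single RNase-only libraries had peaks in 339, 261 and 127 of the 2240 genes, 10.8% ± 4.79 (SD, n = 3), so the share differed by more than its counting error between replicates. Without RNase-only replicate 1, 2 or 3 the share was 3.21%, 3.71% and 7.01%, since support in both of the libraries left was then asked for. Where the resistant peak itself had to overlap an input peak, 106 genes (4.73%) were kept. Of the kept genes 172 were nuclear and 16 mitochondrial.

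The most strongly covered transcripts of secreted liver proteins had no RNase-only peak. Apob, the large apolipoprotein of VLDL, had 13765, 13901 and 13841 of its 13934 exonic bases under input peaks and none under RNase-only peaks. Complement C3, with 5073, 5076 and 5085 input bases of 5143, also had none. Albumin (Alb, 2025, 2203 and 2339 bases of 2342), transferrin (Trf) and fibronectin (Fn1) were the other nuclear secreted proteins among the 10 genes with the strongest input peaks and no RNase-only peak. The remaining 5 were mt-Rnr2, mt-Tl1, mt-Tm, mt-Tf and Gm20425. In these rankings a gene was credited with the whole area of each peak that touched its exons. Input covered 42 of 44 listed plasma protein genes, and 0 of the 42 were kept, with an upper Clopper-Pearson bound of 8.41%, beside the 8.39% of all input-covered genes.

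Lists of liver metabolism had few RNase-only peaks. Of 22 input-covered genes of the urea cycle and amino acid breakdown, 0 were kept, although replicates 1 and 2 had an RNase-only peak in 1 gene of the list, and Cps1, which makes carbamoyl phosphate, had 4287, 4836 and 3929 input bases and no RNase-only peak. Of 21 input-covered cytochrome P450 genes, with Cyp2e1 and Cyp8b1 among them, 0 were kept, and 3 P450 genes without input coverage had RNase-only peaks. Of 27 genes of fatty acid oxidation and ketogenesis 1 was kept, Acadl, a mitochondrial acyl-CoA dehydrogenase, with 315 and 319 RNase-only bases in replicates 1 and 2 and 0 in replicate 3. The 9 input-covered fetal and imprinted genes, with Afp, H19 and Igf2, included 0 kept genes. The intervals of these small lists include the share over all genes.

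Markers of liver cells other than hepatocytes were too few to set their shares apart from the 8.39% of all input-covered genes, with the exception of stellate markers. The Kupffer cell, erythroid, neutrophil and endothelial lists had 7, 6, 5 and 2 input-covered genes, of which 0 were kept, with upper bounds of 41.0%, 45.9%, 52.2% and 84.2%. Of 5 input-covered stellate and fibroblast genes 3 were kept (interval 14.7% to 94.7%). Reln, with the most input bases of the list (3841, 4211 and 5535), and Col1a1 (243, 2182 and 666) had no RNase-only peak. Col3a1, a fibrillar collagen, had 160, 154 and 0 RNase-only bases, Col1a2 had 252, 422 and 0, and the proteoglycan gene Dcn had 323, 115 and 484. Among cholangiocyte markers none was input-covered, and Epcam and Krt19, which mark biliary and intestinal epithelium alike, had 1131, 1106 and 1249 bases and 1213, 1211 and 1022 bases under RNase-only peaks. The colon and smooth muscle lists given above were also covered in the RNase-only libraries, and their part in these counts was not tested.

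Genes of general functions were read against the same 8.39%. Of 37 input-covered histone genes 3 were kept (8.11%), Hist1h1c, Hist1h2bc and H3f3b. Hist1h2bc encodes an H2B and was covered in every library, by 193, 188 and 192 bases in input and 129, 239 and 199 in RNase-only. Of 157 input-covered genes of small structured RNAs 4 were kept (2.55%, interval 0.698% to 6.39%), all 4 of them among the 11 mitochondrial tRNA genes with input, and 12 more had RNase-only peaks without input, of which 8 were mitochondrial tRNA genes. Of 52 snoRNA, 38 miRNA and 24 snRNA genes covered by input, 0 were kept, with upper bounds of 6.85%, 9.25% and 14.2%. Rpph1, the RNA of RNase P, had 313 input bases in each library and no RNase-only peak, and Scarna2 had 385, 414 and 378 and none. Protected RNA was column-purified by the authors against small fragments, and the part of this step in the small RNA counts was not tested. Malat1, a long nuclear RNA, had 6579, 6398 and 6233 input bases and no RNase-only peak. The zinc finger, interferon-response and long noncoding lists had 5, 2 and 7 input-covered genes with 0 kept. A further 7, 4 and 1 genes of these lists had RNase-only peaks without input coverage. Of 285 processed pseudogenes with input peaks 9 were kept, and these counts are uncertain because such genes share reads with their parent genes.

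The share of kept genes was lowest in the groups that input covered most. When the 2240 genes were divided into 5 groups of 448 by the mean share of exonic bases under input peaks, 9.38%, 11.2%, 9.82%, 5.36% and 6.25% were kept, from the least to the most covered. The intervals of the least and most covered groups overlapped (6.84% to 12.5% and 4.19% to 8.91%). Those of groups 2 and 4 did not (8.40% to 14.4% and 3.46% to 7.87%). Input signal also entered the RNase-only calls, and its part in these shares was not tested. In the most covered group 12 of the 28 kept genes were nuclear. By peak area, neighbouring mitochondrial genes such as mt-Atp8 and mt-Atp6 were credited with the same input peaks. Among the 100 genes with the strongest input peaks 15 were kept, of which 14 were mitochondrial, and the only nuclear one was Fads2, a fatty acid desaturase. Its RNase-only peaks, at chr19:10101579-10101651 in replicate 1 and chr19:10101559-10101651 in replicate 3, lay in the 5′ UTR outside every input peak.

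Mitochondrial transcripts stood out among the kept genes: 16 of the 26 input-covered mitochondrial genes were kept (61.5%, interval 40.6% to 79.8%), beside 8.39% of all input-covered genes. That interval takes genes as independent, although single peaks covered several neighbouring mitochondrial genes. The input libraries of replicates 1, 2 and 3 held 13, 15 and 17 mitochondrial peaks in all. Of the 13 mRNA genes, 12 had an own-strand RNase-only peak in at least 2 libraries and 8 in all 3. mt-Nd6, the only mitochondrial mRNA gene annotated on the minus strand, led the kept genes by peak area. RNase-only peaks lay over 100%, 100% and 77.1% of its 519 bases. Whole peaks were credited to it, and those of replicates 1 and 2 were 1918 and 2294 bp long. mt-Nd5, which meets mt-Nd6 end to end, had 56.8%, 46.5% and 40.4% covered, and mt-Co1, a subunit of cytochrome oxidase, 91.2%, 67.9% and 8.22%. mt-Nd4l was the exception, with 4.38%, 0% and 0%. In 12 of these 13 genes replicate 3 had the lowest coverage, and in mt-Nd4l it was level with replicate 2.

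Both strands of the mitochondrial genome gave RNase-only peaks. All 13 mRNA genes had an opposite-strand RNase-only peak in each library, and 12 of 13 had an opposite-strand input peak in each. The 2 mitochondrial rRNA genes had no own-strand RNase-only peak, although mt-Rnr1 was fully covered on that strand in every input library, and on the opposite strand RNase-only peaks covered 4.19% to 6.39% of mt-Rnr1. RNase-only peaks lay on both strands over 7083, 4948 and 1915 bases, or 58.6%, 43.5% and 26.3% of the positions they covered on either strand. In the input libraries this was 85.4%, 68.4% and 77.3%. The fractions did not overlap in this share, and input peaks were called without a control. Mitochondrial peaks carried 5.64%, 2.88% and 1.43% of the summed peak area in the RNase-only libraries and 3.76%, 4.31% and 3.05% in input. Replicate 1 was above and replicates 2 and 3 were below every input value. The summed areas also held an intergenic peak at chr1:5170573-5170673, at 1840293, 2670345 and 1705210 in the RNase-only libraries. In input that region had areas of 3885, 3677 and 3643. The part of such single peaks in these shares was not tested.

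**Figure D2:**
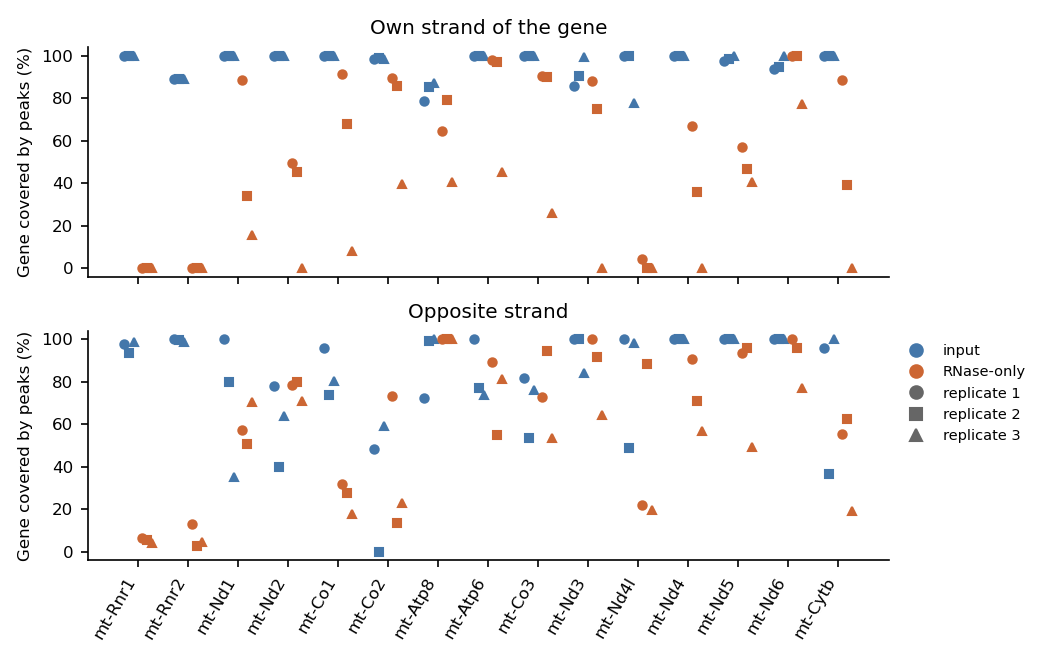
Share of each mitochondrial rRNA and mRNA gene under peaks of its own strand (top) and of the opposite strand (bottom), in percent, for each library. The rRNA genes mt-Rnr1 and mt-Rnr2 were at 0% on their own strand in every RNase-only library, whereas opposite-strand RNase-only peaks were present in all 13 mRNA genes.

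6 stretches were covered on both strands in all 3 RNase-only libraries. The longest ran over 411 bases at MT:13181-13591, across the 3′ ends of mt-Nd5 and mt-Nd6 printed above, and a further one lay within mt-Nd6 at MT:13727-14013. The others lay in mt-Nd5 (MT:11788-12136), across mt-Ts2, mt-Tl2 and the start of mt-Nd5 (MT:11613-11744), in mt-Atp8 and mt-Atp6 (MT:7887-8123) and in mt-Co3 (MT:9186-9367). Input peaks of both strands spanned all of these in every library except MT:11613-11744, where no input library had a plus-strand peak. On the minus strand of MT:11223-14532, which includes mt-Nd6, the strongest RNase-only areas were 132884, 57899 and 13471, against 28277, 18297 and 27340 in input. Replicate 3 was below and replicates 1 and 2 were above every input value, but areas depend on depth and the input lists were called without a control.

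A small number of nuclear regions with an input peak carried very strong RNase-only peaks. The strongest, chr1:5170573-5170673 on the minus strand, is intergenic in the annotation and had areas of 1840293, 2670345 and 1705210 in the RNase-only libraries and 3885, 3677 and 3643 in input. Its plus strand had a weaker peak at chr1:5170576-5170700. A second, chr2:18676507-18676581 on the plus strand, had areas of 393620, 505041 and 408395 against 2599, 2477 and 2645. Mpped1 (chr15:83779986-83780216) and Memo1 (chr17:74294806-74294913) had such peaks in their 5′ UTRs, with input areas of 1186 to 1360 and 729 to 1284. In all, 79 regions found in every RNase-only library touched an input peak, and 17 of them were mitochondrial. Areas also depend on depth, which differed between the fractions, and on the control, which the input lists did not have.

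The other kept nuclear genes were resistant mainly in their 3′ UTRs. In the 172 kept nuclear genes, 82.4%, 84.9% and 71.7% of the exonic RNase-only peaks touched an annotated 3′ UTR in replicates 1, 2 and 3. Only 50.8%, 47.5% and 53.5% of those exonic peaks overlapped an input peak of any library. Tgoln1, a membrane protein of the trans-Golgi network, kept the most 3′ UTR length, with 1612, 2186 and 528 bases under RNase-only peaks, all between chr6:72608423 and chr6:72612035. Its input peaks of replicates 1 and 2 lay upstream, in a coding exon at chr6:72615602-72616449 and chr6:72615607-72616449. Input replicate 3 had its only peak in the 3′ UTR, at chr6:72611697-72612045, where RNase-only replicate 2 also had one (chr6:72611867-72612035).

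Dstn and Ccni also had most of their RNase-only bases in the 3′ UTR. Dstn, which encodes the actin-depolymerising protein destrin, had 450, 761 and 448 RNase-only bases, all in the 3′ UTR, and 308, 488 and 861 input bases, of which those of replicate 2 and part of replicate 3 lay in the 3′ UTR as well. Ccni, a cyclin, had 641, 951 and 549 RNase-only bases. Its RNase-only peak in replicate 1 ended at chr5:93182969, and the input peak of replicate 1 began at the next base. In replicate 2 the RNase-only peak ended at chr5:93183025, and the input peak of replicate 2 began at chr5:93183026.

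This meeting of borders was seen in a small part of the peaks, and it followed the replicate number. Of 5537, 3795 and 3121 nuclear RNase-only peaks, 131, 84 and 61 shared a border with an adjoining input peak of the same number. With an input peak of another number, 0 to 5 did. Overlap went the other way: 1.50%, 1.24% and 0.929% of the nuclear RNase-only peaks overlapped a peak of the input library with the same number, and 2.53% to 5.82% one with another number. The sources used here say that the corresponding input libraries were the controls, not whether each list had the input of its own number. The counts of kept genes and of peaks without input were read from lists with these shared borders.

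**Figure D3:**
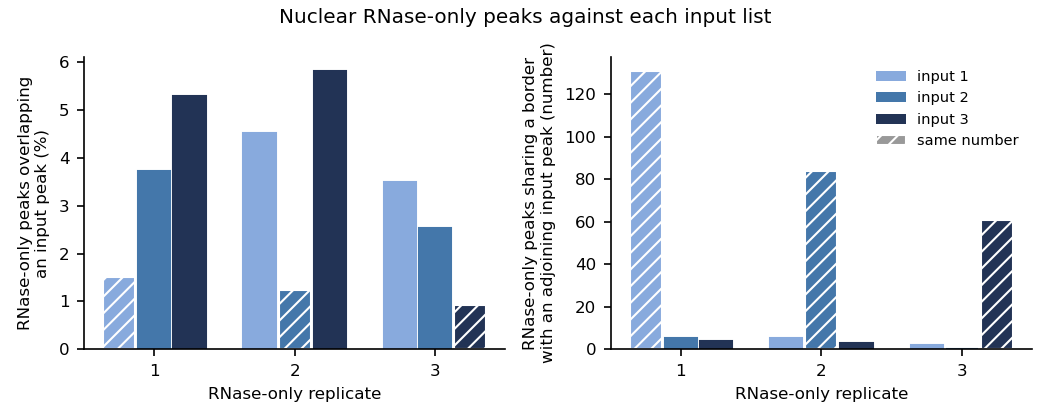
Left, share of nuclear RNase-only peaks that overlap a peak of each input list, in percent; right, number of RNase-only peaks that share a border with an adjoining input peak. Hatched bars are lists of the same replicate number, which had the lowest overlap (0.929% to 1.50%) and the most shared borders (61 to 131).

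Among the genes with exonic peaks in all 6 libraries, 39 were nuclear. They included the small GTPases Rhob, with 456, 409 and 708 RNase-only bases, Rac1, with 823, 665 and 274, and Cdc42, with 294, 115 and 109. Mcl1, an inhibitor of apoptosis, had 857, 1421 and 986 input bases and 704, 955 and 325 RNase-only bases. Perp, a desmosomal membrane protein, had 256, 845 and 787 input bases and 628, 549 and 518 RNase-only bases. These genes were named after their values were seen. RNase-only coverage was above input coverage in replicate 1 for Perp and Rac1 and below it in all replicates for Rhob and Cdc42.

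Position within the transcript was compared next, over all nuclear protein-coding genes with a peak. Of the transcript bases under RNase-only peaks, 72.2%, 75.003% and 54.97% lay in 3′ UTRs, against 42.5%, 37.4% and 40.4% of those under input peaks (67.4 ± 10.9 against 40.1 ± 2.57, mean ± SD, n = 3; exact permutation p = 0.1, adjusted p = 0.13). The coding share was 27.6 ± 4.95 against 56.7 ± 2.64 (exact permutation p = 0.1, adjusted p = 0.13). Both differences were larger than the spread, and the fractions did not overlap. The 3′ UTR made up 44.2% to 46.7% of the length of the transcripts with RNase-only peaks and 40.2% to 41.2% of those with input peaks. The 5′ UTR held 1.33%, 1.70% and 12.0% of RNase-only bases and 3.10% to 3.38% of input bases, so that replicate 3 alone set the sign of the mean difference.

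The 3′ shift was also seen within the kept genes, of which 143, 139 and 68 nuclear protein-coding ones had a peak in the RNase-only and 139, 120 and 152 in the input libraries. There 86.6% ± 2.55 of RNase-only bases and 49.4% ± 1.10 of input bases lay in 3′ UTRs (exact permutation p = 0.1). The final 10% of these transcripts' length held 32.6%, 36.5% and 30.8% of RNase-only bases and 4.76%, 4.64% and 5.06% of input bases. Over all genes it held 24.3% ± 4.14 against 6.44% ± 0.428. In genes that were not input-covered, the 3′ UTR share of RNase-only bases was 66.9% ± 2.92. In the kept genes the final 10% was also where input peaks were scarcest, and input was the control of the RNase-only calls.

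**Figure D4:**
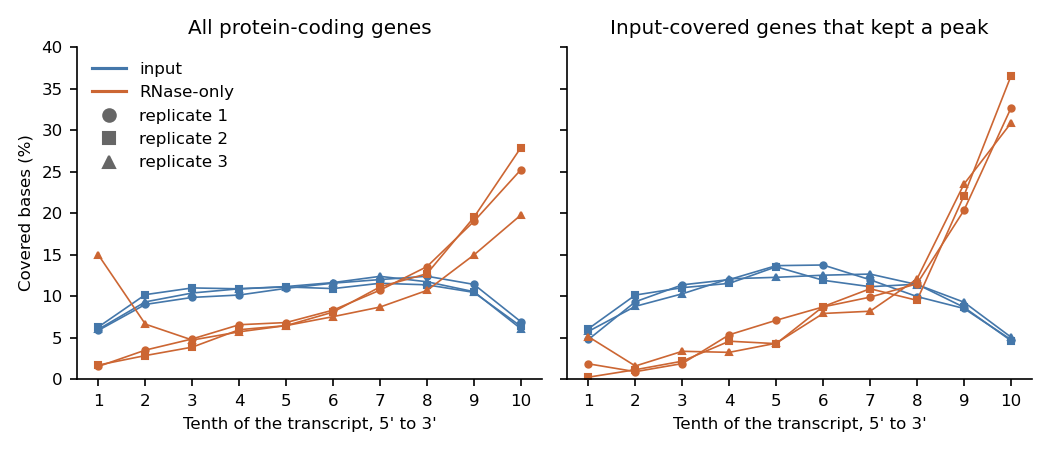
Share of the transcript bases under peaks, in percent, in 10 equal parts of the transcript from 5′ to 3′, for each library; left, all nuclear protein-coding genes, right, input-covered genes that kept a peak. RNase-only bases rose to 19.8% to 27.9% in the last part on the left and 30.8% to 36.5% on the right, where input was at 4.64% to 5.06%; replicate 3 of RNase-only alone had 14.9% in the first part on the left.

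The location of all peaks differed as well. Intronic peaks made up 30.5%, 26.9% and 24.6% of the RNase-only lists and 2.75%, 1.46% and 1.57% of the input lists (exact permutation p = 0.1, adjusted p = 0.125). Peaks with no gene on their own strand, a class that includes peaks antisense to a gene, made up 26.7%, 21.9% and 43.7% against 6.99%, 5.18% and 4.62%, and exonic peaks outside UTRs 12.0%, 11.6% and 9.75% against 47.0%, 52.6% and 48.9% (exact permutation p = 0.1 and adjusted p = 0.125 for each). The fractions did not overlap in these classes. Peaks touching a 5′ UTR, at 1.79%, 3.08% and 8.10% against 11.1%, 12.0% and 10.5%, did not overlap either (exact permutation p = 0.1, adjusted p = 0.125), but by the class of the middle base the difference shrank from −6.89 to −0.77 points (exact permutation p = 0.5). Peaks touching a 3′ UTR, at 28.9%, 36.5% and 13.8% against 32.1%, 28.8% and 34.4%, overlapped between the fractions (exact permutation p = 0.7), and without RNase-only replicate 3 the mean difference changed sign.

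**Figure D5:**
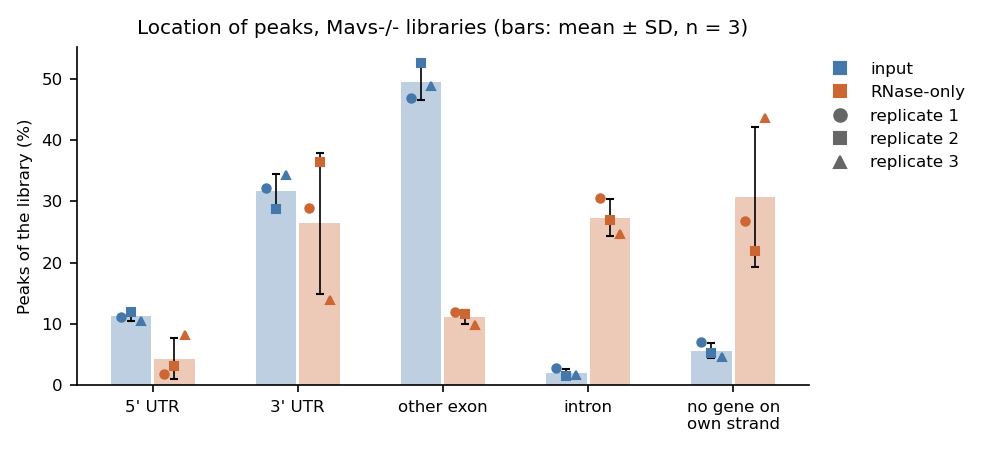
Share of peaks by location in each library, in percent of the library's peaks; bars are means with SD over 3 libraries and symbols are replicates. Introns held 24.6% to 30.5% of RNase-only and 1.46% to 2.75% of input peaks, and RNase-only replicate 3 had the fewest 3′ UTR peaks (13.8%) and the most peaks with no gene on their own strand (43.7%), which include antisense peaks.

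Peaks where no input was called made up most of every RNase-only list. No base of 5167 of 5572, 3499 of 3826 and 2982 of 3150 RNase-only peaks was covered by a peak of any input library on the same strand, which is 92.7%, 91.5% and 94.7% (93.0% ± 1.62, SD, n = 3). Exons of genes that were not input-covered held 36.0% ± 8.28 of them, introns of such genes 24.1% ± 2.58, and exons of input-covered genes 3.47% ± 1.11. Peaks antisense to a gene were 10.8%, 8.43% and 24.1%, and those outside genes 17.0%, 13.9% and 20.4%. Replicate 3 had the highest antisense share. The median area of peaks without input was 708, 725 and 671, and that of peaks with input 798, 751 and 758, where the lowest area in the lists was 500.1 to 500.3.

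These regions recurred only in part. Joined across libraries they formed 7499 regions without any input peak, of which 2760 (36.8%) were found in at least 2 libraries and 1025 (13.7%) in all 3. Regions found in all 3 had a median length of 263 bp, against 184 bp for all. Of the 1025, 369 lay in exons of genes that were not input-covered, 285 in introns of such genes, 144 antisense to a gene and 128 outside genes.

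Most of the 10 strongest recurrent regions lay in 3′ UTRs. The first, chr1:174332190-174332878, lies in the 3′ UTR of Mptx1, a mucosal pentraxin, with areas of 8205, 7129 and 4554. Others were the 3′ UTRs of Muc13, a transmembrane mucin (chr16:33818872-33819929), Epcam, an epithelial adhesion molecule (chr17:87650426-87651129), Pigr, the receptor that carries IgA across epithelia (chr1:130850800-130851876), Gpa33, an intestinal surface antigen (chr1:166165147-166166505), Tspan1 and Golm1. The intronic ones were in Sipa1l1 (chr12:82243847-82244416) and in Slc22a27 (chr19:7945167-7945949). The remaining one was the stretch of 19 bp in Gm37194 printed above, with areas of 5313, 7938 and 4603. No other region of the 10 was shorter than 498 bp.

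Read as genes, 795 that were not input-covered had RNase-only exonic peaks, 1.49% of the 53296 genes without input coverage. Of these, 718 were protein-coding, and 678 had no peak in any single input library. Pigr led them by peak area, with 2915, 2979 and 1743 of 4025 exonic bases covered. Tgm3, a transglutaminase, Muc13, Ckmt1, a mitochondrial creatine kinase, and the chloride channel regulator Clca1 followed, the last with 2317, 2393 and 1085 of 3777 bases. Cyp2c55, a cytochrome P450 of the colon, had 1874, 1785 and 888 of 1995 bases covered.

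RNase-only peaks ran further along these transcripts than along those of kept genes. Both groups were defined by input peaks, and input was also the control of the RNase-only calls. The part of this in the differences below was not tested. Of the representative transcript, a median of 17.2%, 16.9% and 14.1% was covered in nuclear protein-coding genes without input coverage and 10.7%, 9.70% and 9.67% in kept ones. At least 50% of the transcript was covered in 93 of 648, 91 of 643 and 32 of 329 genes without input coverage, and in 1 of 143, 1 of 139 and 1 of 68 kept genes. Peak borders within 2 bp of a splice site were found for 27.7%, 26.3% and 22.3% of exonic RNase-only peaks in genes without input coverage, for 7.18%, 6.42% and 9.24% in input-covered genes, and for 49.2%, 58.5% and 47.3% of exonic input peaks. Lypd8, an input-covered gene, also had such borders: exon 3, printed above, spans chr11:58382752-58382865, and its peak ran from chr11:58382750 to 58382866 in replicates 1 and 2 and to 58382871 in replicate 3.

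Base composition and predicted folding were compared for exonic peaks. The median GC content was 46.8%, 47.0% and 53.5% in the RNase-only libraries and 53.5%, 53.1% and 53.7% in input (exact permutation p = 0.3, adjusted p = 0.5). Replicates 1 and 2 were below every input library and replicate 3 was within their range. Within input-covered genes the fractions separated, with a GC content of 43.4% ± 2.20 for RNase-only and 53.4% ± 0.232 for input peaks (exact permutation p = 0.1). The predicted minimum free energy of the central 100 nt was −18.7, −19.9 and −21.7 kcal/mol in RNase-only and −26.1, −25.6 and −26.0 in input peaks of these genes (exact permutation p = 0.1). RNase-only peaks of input-covered genes were thus predicted to fold less stably alone. Over all exonic peaks the energies overlapped, at −21.1, −21.7 and −26.9 against −26.2, −25.5 and −26.1 kcal/mol (exact permutation p = 0.4, adjusted p = 0.5). There RNase-only replicate 3 was predicted to fold more stably than every input library. With only those peaks of input-covered genes that touched a 3′ UTR, the GC content was 39.9% ± 0.310 against 52.1% ± 0.271. This choice was made after seeing the data. Coding bases under such peaks were counted as well, so the transcript region was not held fixed.

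Inverted repeats within the spliced transcript were rare at exonic peaks. At least 70 nt of antiparallel self-match with 70% identity was found in 71 of 4728 transcripts, and its arms were touched by 0.133%, 0.218% and 1.58% of exonic RNase-only peaks and 0.247%, 0.126% and 0.115% of input peaks (exact permutation p = 0.5). Knl1, which encodes a kinetochore scaffold, was such a case, with RNase-only peaks of 121 bp in its 3′ UTR at chr2:119104348-119104468 in replicate 2 and chr2:119104361-119104481 in replicate 3, and no input peak. Rnf168 and Zkscan3, which the study cloned along with Knl1, had no exonic peak in any of the 6 libraries. Introns, where 27.4% ± 2.96 of RNase-only peaks lay, were not searched, since no genome sequence was used here.

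The share of kept genes was also read in editing-deficient liver. Of 3342 input-covered genes in Adar-/-; Mavs-/- liver, single RNase-only libraries had peaks in 13.3%, 12.9% and 11.1%, against 15.1%, 11.7% and 5.67% of 2240 in Mavs-/- liver (12.4 ± 1.14 against 10.8 ± 4.79, mean ± SD, n = 3; exact permutation p = 0.8). The genotypes overlapped, and the sign of the difference changed without Mavs-/- replicate 3. Of the 188 genes kept in Mavs-/- liver 122 (64.9%) were also kept in Adar-/-; Mavs-/- liver, where they were 36.2% of the 337 kept genes.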

How the data were processed

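Reads were trimmed by the authors with Trim Galore 0.6.6 and aligned to GRCm38 (mm10) with NextGenMap, and peaks were called per library and strand with Genrich 0.6.1, per the submitters' processing notes and the study's methods. Each deposited list gives peak positions, the area of the peak as a score by the authors' caller, and −log10 p and q-values as deposited. Protected RNA was column-purified against small fragments, rRNA was depleted, and rRNA repeats and blacklisted regions were left out by the authors. The smallest deposited area score in the Mavs-/- RNase-only and input lists was 500.0 to 500.7, and the lowest −log10 adjusted p-value among the deposited peaks was 3.55, so the area limit acted as the filter. Areas grow with depth, and genes and regions were ranked by area within a library. Areas printed for both fractions are not on 1 scale, because only the RNase-only lists were called with input as the control. Read counts were not used here, so intervals on levels and count tests are not given, and the lower depth of RNase-treated libraries that the study describes was not corrected for.

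Peaks were intersected with GENCODE M21 exons, 1 base being enough, in Python 3.11.15 with numpy 2.4.6 and scipy 1.17.1. The transcript with the longest coding sequence stood for its gene. A peak in several location classes went to UTRs first (5′ before 3′), then other exons, then introns. Libraries were compared, 3 against 3, by two-sided exact permutation tests with Benjamini-Hochberg adjustment within each family of measures, and shares of genes carry Clopper-Pearson intervals. Folding used ViennaRNA 2.7.2, and self-matches used blastn 2.17.0. Measures were tested on simulated lists. Genes were named by mean rank of peak area over the 3 libraries (10 kept genes, 10 input genes without RNase-only peak, 10 regions without input), by the most kept length per transcript region, as genes deleted or cloned in the study, and, for at most 4 of a list, by input-covered length. Others were named after their values were seen. The comparison, members and lists were chosen with earlier results of these data known, and the organ lists were written after these peaks were seen.

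Deviations of same-numbered libraries had correlations of −0.0435, −0.0403 and 0.0266 over genes, and numbers were not used as pairs in the main tests. List borders followed the number, so these correlations cannot decide whether same-numbered libraries were paired. The permutation tests took the lists as independent, and the effect of the shared borders on them was not tested. Alternatives covered support, area, length, strand, overlap, transcript choice and left-out libraries. Results for a small number of genes are not reported here.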

Additional observations from a re-analysis of the deposited data

Results flagged for a closer look

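MDA5-protected libraries of Mavs-/- liver, which entered no comparison above, also held peaks in genes of the colon and rectum epithelium: 13, 12 and 12 of the 35 listed genes in replicates 1, 2 and 3. These counts were above the 2, 1 and 2 genes in the undigested input libraries and below the 31, 30 and 29 in the RNase-only libraries, which had no MDA5. The share of all genes with a peak in the MDA5-protected libraries is not given here. The MDA5-protected counts were singled out because a signal in data outside the main measurement exceeded the level in the input controls, and the list was written after the data were seen.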

How the results depend on the processing

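Of 164 alternatives tried on the 17 tested differences, 159 kept the direction of the main value, and no p could fall under 0.1. For each of the 17, the alternative with the replicate number as a block changed only the test. Its direction was fixed in advance, so it says nothing about stability. The share of kept genes, 8.39%, was 22.2% with support from at least 1 of 3 libraries, 3.14% with all 3, 2.61% with areas of at least 1000, 6.36% with the 3150 strongest peaks of each library, 4.73% where the resistant peak had to overlap an input peak and 9.89% for protein-coding genes. It was 7.77% without mitochondrial genes, an alternative chosen after seeing the data. Leaving out single libraries gave 3.21% to 8.42%. The share of RNase-only peaks without input, 93.0%, was 96.8% when input had to be called in at least 2 libraries, 90.9% when input within 200 bp counted, 90.3% with areas of at least 1000, and 93.6% to 94.8% without single input libraries. The 3′ UTR share of peaks, −5.34 points against input, ran from −10.4 to 0.945 (above 0 without RNase-only replicate 3) without single libraries, and the 5′ UTR share of bases, 1.79 points, was −3.004 in kept genes. Without single libraries the latter ran from −1.72 (without RNase-only replicate 3) to 3.63. The genotype difference, −1.62 points, was 1.24 with equal numbers of peaks, and −3.78 to 0.955 without single libraries. The cause of these reversals was not tested.

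Deviations from the group means did not go with the replicate number, whereas list borders did. The deviations therefore cannot decide whether the number marks pairs of animals, and the main tests did not use it. With the number as a replicate block, the mean share of kept genes was 10.1% and the share of RNase-only peaks without a peak of the same-numbered input 98.1%, and sign-flip tests over 3 pairs cannot give a p under 0.25. The shared borders bear on both block values. Depth differed between the fractions and was not equalised, which limits every count of peaks. Repeat content from the genome sequence and inverted repeats in introns were planned and not run.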
